A study of Homo sapiens with 24 samples.

Results

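The genes followed were 8 neuroendocrine markers, namely synaptophysin (SYP), chromogranin A (CHGA), chromogranin B (CHGB), secretogranin II (SCG2), secretogranin III (SCG3), POU3F2, INSM1 and NCAM1, and REST, the repressor of neuronal genes. These 9 of the 60675 genes in the count tables were taken by symbol, with earlier results of these data known. RNA-seq counts were read for them in 24 libraries of 2 prostate cancer lines, LNCaP:C4-2 (LNCaP:C42 in the labels) and 22Rv1, with 3 libraries in each of 8 groups. Cells received either a siRNA pool against METTL3, the catalytic subunit of the m6A RNA methyltransferase (siMETTL3), or a non-targeting pool (siSCR), and were then given ethanol vehicle or the synthetic androgen R1881 at 1 nM. All groups were grown in medium without phenol red and with charcoal-stripped serum, which is low in androgen, were transfected for 48 h, and were transfected again and treated for 72 h. LNCaP:C4-2 is a castrate-resistant derivative of LNCaP and 22Rv1 is a line resistant to enzalutamide. Each is a single line, so a difference between them is a difference between 2 lines and not between classes of tumour.

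Neuroendocrine cells store peptides in dense-core granules. Chromogranins and secretogranins are cargo and assembly factors of these granules, synaptophysin is a membrane protein of small vesicles, NCAM1 is an adhesion molecule, and INSM1 and POU3F2 (BRN2) are transcription factors of the neuroendocrine and neural programme. REST is a zinc-finger protein that binds the RE1 element, also called NRSE, and represses neuronal genes through corepressors such as RCOR1 and SIN3A; its loss or inactive splicing, promoted by SRRM4, is a known feature of neuroendocrine prostate cancer.

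The members lie on 8 chromosomes of GRCh38, with coordinates as deposited from Ensembl release 83. SYP (ENSG00000102003) lies at chrX:49187804-49200259 on the minus strand, CHGA (ENSG00000100604) at chr14:92923080-92935293 and CHGB (ENSG00000089199) at chr20:5911430-5925361. SCG2 (ENSG00000171951) lies at chr2:223596940-223602503 on the minus strand, SCG3 (ENSG00000104112) at chr15:51681353-51721031 and POU3F2 (ENSG00000184486) at chr6:98834592-98839490. INSM1 (ENSG00000173404) lies at chr20:20368121-20370949, NCAM1 (ENSG00000149294) at chr11:112961247-113278436 and REST (ENSG00000084093) at chr4:56907876-56935844. INSM1 and POU3F2 are single-exon genes, and REST has 8 merged exon blocks. Counting did not use strand, and antisense genes overlap 1.30% of the exonic bases of SYP and 5.52% of those of NCAM1, so reads there cannot be assigned to a strand.

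The RE1 element is shown because it links REST to the markers. The sequence searched was the half-site TTCAGCACC, 2 free bases and the half-site GGACAGCGC, on both strands, within 5000 bases on each side of RefSeq gene starts (hg38), with up to 3 mismatches in 18 fixed bases. Of 35116 start windows, 2.07% held such a match. RefSeq starts were at hand for 5 members, of which 2, CHGA and SYP, had a match and 3, POU3F2, SCG3 and REST, had none. CHGB, NCAM1, INSM1 and SCG2 had no entry. Of the 20 genes listed as known carriers of the element, 16 had an entry and 13 had a match, but that list was chosen for this property. The CHGA and SYP sites follow with those of 3 listed genes that were abundant in 22Rv1, each read in the orientation of the element, with bases that match the consensus in capitals.
CHGA: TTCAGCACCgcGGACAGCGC
SYP: TcCAGCACCgtGGACAGaGC
SRRM4: TTCAGCACtttGGACAGCGC
VGF: TTCAGCACgctGGACAGCGC
SYT4: TTCAGCACCtcGGACAGaaC
The CHGA site (chr14:92923523-92923542, plus strand) matched all 18 fixed bases and lay in an intron, 382 bases after the start. The SYP site (chrX:49200123-49200142, minus strand) matched 16 bases and lay 61 bases after the RefSeq start, in an intron of the deposited gene model. The SRRM4 site (chr12:118981833-118981852, plus strand) and the VGF site (chr7:101165559-101165578, plus strand) each matched 17 bases and lay in exonic untranslated sequence, 301 bases and 1 base after the start. The SYT4 site (chr18:43277294-43277313, minus strand) matched 16 bases, 187 bases after the start, also in exonic untranslated sequence. These are matches of letters and not measured binding. The last 3 were picked for their level in 22Rv1, so the sites shown do not tell how matches and levels go together. The marker PTPRN also matched all 18 bases, and had 12 counts in 22Rv1 and 56 in LNCaP:C4-2 (siSCR, vehicle, 3 libraries each). The listed carrier GRIA2 matched all 18 as well, with 1036 and 0 counts in these groups, so full matches went both ways. UNC13A, a listed carrier with 13920 and 49 counts, had no match.

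Libraries held 15716224 to 21306019 counted fragments, so that 3 counts are 0.141 to 0.191 counts per 1000000 (CPM). All other CPM values were also scaled by trimmed mean of M values. METTL3 was lower in every siMETTL3 library than in every matched siSCR library: by 33.8% and 32.8% on average in LNCaP:C4-2 with vehicle and R1881, and by 46.1% and 55.5% in 22Rv1. In LNCaP:C4-2 with R1881 this fall did not reach the 1.5-fold threshold (log2 fold change −0.57 ± 0.11 SE; adjusted p = 0.026, edgeR quasi-likelihood test, Benjamini-Hochberg method). The luminal markers KRT8, KRT18 and EPCAM were abundant in both lines, with at least 86.7 CPM in each of the 24 libraries. R1881 raised KLK3 in LNCaP:C4-2 from 19.7 ± 3.36 to 335 ± 30.3 CPM (SD, n = 3), whereas in 22Rv1 it was 6.61 ± 0.315 and 6.56 ± 0.712 CPM. Of 12 markers of other cell types, CD3E, PECAM1 and KRT5 had at most 2 counts in any library, while COL1A1 reached 71.9 CPM in LNCaP:C4-2 and 29.1 CPM in 22Rv1 and VWF reached 12.3 CPM in LNCaP:C4-2; their part in the results was not tested. In such bulk samples, fewer cells of a type and less RNA per cell cannot be told apart.

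All 9 members are shown library by library in the plot of CPM by group. In 22Rv1 with siSCR and vehicle, levels per length of exonic sequence (CPM per kb) placed SCG3 first at 28.4 ± 4.89 (SD, n = 3), followed by SYP at 16.9 ± 1.60, CHGB at 15.8 ± 3.28 and REST at 14.9 ± 1.74. SCG3 lay above SYP in every library, whereas the ranges of SYP, CHGB and REST overlapped, so that these 3 have no order. SCG2 at 2.41 ± 0.309, POU3F2 at 1.88 ± 0.0374 and CHGA at 0.292 ± 0.0593 CPM per kb were each above the next without overlap, and INSM1 and NCAM1 were lowest at 0.0880 ± 0.0221 and 0.0181 ± 0.0105. The widely used markers CHGA and NCAM1 were thus close to or below 1 CPM in this group.

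**Figure D1:**
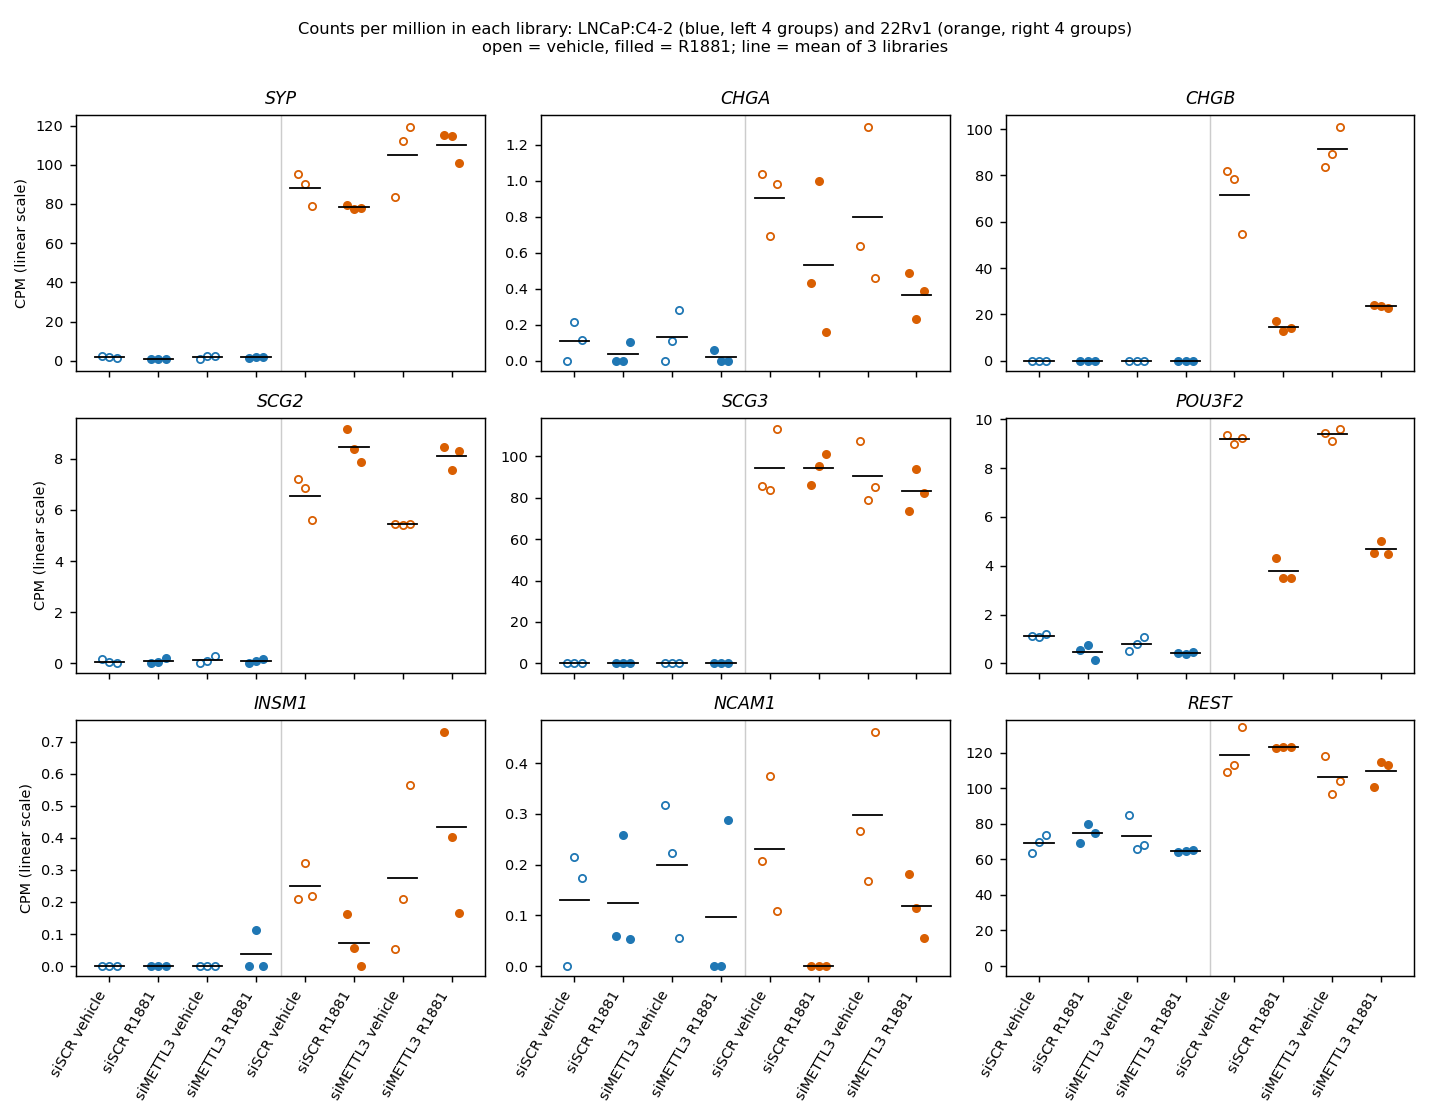
Level in CPM on a linear axis, with its own range for each gene, in each of the 24 libraries; points are libraries, open for vehicle and filled for R1881, and lines are means of 3. The 12 LNCaP:C4-2 libraries lie at or near 0 for CHGB and SCG3, and REST is between 63.6 and 135 CPM throughout.

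The first comparison asked how the lines differ, in siSCR cells. Of the 9 members, 7 passed the filter on low counts and all 7 were higher in 22Rv1, both with vehicle and with R1881 (called by edgeR at a fold of 1.5 or more with an adjusted p under 0.05). Over all genes tested, 59.2% were called with vehicle, 31.2% as higher in 22Rv1, and 60.1% with R1881, 32.6% as higher. Within LNCaP:C4-2 only 3 members, SYP, POU3F2 and REST, passed the filter. CHGB, SCG3, SCG2 and CHGA passed only through 22Rv1, and so had to differ. The summed level of the 12 markers of other cell types was 50.6 to 86.3 CPM in the LNCaP:C4-2 libraries and 15.8 to 30.6 CPM in those of 22Rv1, and that of the 8 luminal markers 2732 to 3753 and 1327 to 1483 CPM; their part in the differences was not tested. With another scaling the median of all genes moved: it was 0.033 on the log2 scale with vehicle, and 0.18 with library size alone, which is small beside the values of the markers.

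CHGB, the granule cargo protein, was absent from the reads of LNCaP:C4-2, with 0 counts in all 12 libraries. In 22Rv1 with siSCR and vehicle it had 81.9, 78.4 and 54.6 CPM. Set against 3 counts over the 3 LNCaP:C4-2 libraries, CHGB was at least 1295-fold higher in 22Rv1 with vehicle and at least 252-fold higher with R1881. SCG3, which helps load granin cargo into granules, had 85.8, 83.9 and 113 CPM in 22Rv1 with vehicle. Its count in LNCaP:C4-2 was 1 fragment over 3 libraries, a ratio of 5082 with an exact counting interval of 912 to 200800. With R1881 there were 2 fragments, and the ratio was 2416 (668 to 19950). These intervals, at 95%, cover counting error only.

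SCG2, the precursor of secretoneurin, had 7.22, 6.85 and 5.62 CPM in 22Rv1 with vehicle and at most 0.166 CPM in the matched LNCaP:C4-2 libraries. The log2 difference was 6.34 ± 0.44 (SE; adjusted p = 6.42e-13, edgeR quasi-likelihood test) and with R1881 6.35 ± 0.41. It rests on few LNCaP:C4-2 fragments: without the first LNCaP:C4-2 library it was 7.60 with vehicle, and without the third 7.79 with R1881, and over all 6 libraries left out in turn the lowest values were 5.86 and 5.78. CHGA was low in both lines. It had 1.04, 0.696 and 0.981 CPM in 22Rv1 and 0, 0.215 and 0.116 CPM in LNCaP:C4-2 with vehicle, which do not overlap. The log2 difference of CHGA was 2.95 ± 0.75 (adjusted p = 0.00097, edgeR), and it was 3.88 without the second LNCaP:C4-2 library and 2.43 without the first. With R1881 it rested on 29 fragments against 2, a ratio of 13.4 (exact counting interval 3.40 to 116). SCG2 and CHGA passed the filter only through 22Rv1 and so had to be higher there. Their p-values are thus no independent support for a difference between the lines.

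SYP was the marker with the highest level per length in LNCaP:C4-2. With vehicle it had 2.43, 1.82 and 1.68 CPM there and 95.1, 90.4 and 78.9 CPM in 22Rv1, a 44.6-fold difference of means (log2 5.47 ± 0.19 SE, adjusted p = 2.72e-19, edgeR). With R1881 the log2 difference was 6.32 ± 0.21. POU3F2 had 1.10, 1.07 and 1.21 CPM in LNCaP:C4-2 and 9.35, 8.99 and 9.21 CPM in 22Rv1 (log2 3.02 ± 0.21, adjusted p = 1.39e-12, edgeR), and the log2 difference with R1881 was 2.98 ± 0.27. Neither SYP nor POU3F2 overlapped between the lines under either treatment.

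INSM1 and NCAM1 did not pass the filter with all libraries. INSM1 had 0 counts in 11 of the 12 LNCaP:C4-2 libraries and 4, 6 and 4 counts in 22Rv1 with siSCR and vehicle. With 1 library left out the filter admitted INSM1, and it was called higher in 22Rv1 with vehicle in all 6 such fits, on these few counts. INSM1 could pass only through 22Rv1 and so had to be higher there. The 6 fits share most libraries and are no independent support for a difference. NCAM1 had 0, 4 and 3 counts in LNCaP:C4-2 and 4, 7 and 2 in 22Rv1 with vehicle, and these ranges overlapped. With R1881 it had 1, 4 and 1 counts in LNCaP:C4-2 and 0 in all 3 libraries of 22Rv1, which do not overlap and lie the other way, at the limit of these libraries. It was called lower in 22Rv1 with R1881 only when no filter was used.

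REST was itself higher in the line that expressed the markers. It had 63.6, 69.9 and 73.6 CPM in LNCaP:C4-2 and 109, 113 and 135 CPM in 22Rv1 with vehicle, a log2 difference of 0.78 ± 0.099 (SE; adjusted p = 8.57e-08, edgeR quasi-likelihood test). With R1881 the values were 69.4, 80.0 and 74.9 against 123, 123 and 123 CPM, a log2 difference of 0.72 ± 0.099 (adjusted p = 3.40e-07, edgeR). The groups did not overlap in either treatment. Gene-level counts do not separate REST splice forms, so the share of full-length REST was not measured here.

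The second comparison asked what androgen did to the members. In 22Rv1 with siSCR, 2 of the 7 members that passed the filter were called, both lower with R1881, against 13.8% of all genes called and 9.64% called as lower; the median log2 change was −0.18 over these members and 0.0021 over all genes. With siMETTL3 the same 2, CHGB and POU3F2, were called lower, against 13.5% of all genes and 9.29% called as lower. CHGB fell from 81.9, 78.4 and 54.6 CPM to 17.1, 13 and 14.1 CPM with siSCR, which leaves a wide gap between the groups. The log2 fold change was −2.29 ± 0.13 (SE; adjusted p = 1.25e-11, edgeR quasi-likelihood test). With siMETTL3, CHGB fell from 83.7, 89.2 and 101 CPM to 24.2, 23.8 and 23 CPM (log2 −1.97 ± 0.13, adjusted p = 7.80e-11, edgeR).

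POU3F2 fell with R1881 in 22Rv1 from 9.35, 8.99 and 9.21 CPM to 4.30, 3.5 and 3.51 CPM with siSCR. Its log2 fold change was −1.29 ± 0.13 (adjusted p = 1.48e-07, edgeR). With siMETTL3 it fell from 9.45, 9.10 and 9.59 CPM to 4.50, 5.02 and 4.49 CPM (log2 −1.03 ± 0.13, adjusted p = 2.60e-06, edgeR). In neither siRNA group did the treatments overlap.

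SCG2 stood apart from CHGB in direction. It had 7.22, 6.85 and 5.62 CPM with vehicle and 9.15, 8.40 and 7.86 CPM with R1881 in siSCR cells, groups that do not overlap. The log2 fold change of 0.36 ± 0.13 had an adjusted p of 0.041 (edgeR) but stayed under 1.5-fold. With siMETTL3 the values were 5.45, 5.41 and 5.44 against 8.46, 7.55 and 8.31 CPM (log2 0.55 ± 0.14, adjusted p = 0.0031, edgeR), again under 1.5-fold; without the second siMETTL3 library with R1881 it was 0.61 and was called. The estimates for these 2 granins thus had opposite signs in both siRNA groups.

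The remaining members of 22Rv1 were not called with R1881. SCG3 was −0.0062 ± 0.11 on the log2 scale in siSCR cells and −0.14 ± 0.11 in siMETTL3 cells. SYP had −0.18 ± 0.11 and 0.046 ± 0.11, and its second value changes sign when libraries are scaled by size alone. REST had 0.046 ± 0.083 and 0.021 ± 0.084, both of which change sign with that scaling, and intervals of −0.12 to 0.21 and −0.14 to 0.19 (95%). CHGA, at 20, 13 and 18 counts with vehicle and 8, 18 and 3 with R1881, was −0.79 ± 0.50 on the log2 scale in siSCR and −1.17 ± 0.54 in siMETTL3 cells (adjusted p = 0.24 and 0.10, edgeR). Without the second R1881 library the siSCR value of CHGA was −1.60 and was called (adjusted p = 0.046, edgeR), and without the third it was −0.35. NCAM1 had 4, 7 and 2 counts with vehicle and 0 in all 3 R1881 libraries of siSCR cells, a level at the limit of these libraries, and was called only when no filter was used.

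In LNCaP:C4-2 only SYP, POU3F2 and REST passed the filter. With siSCR, 2 of these 3 were called, both lower with R1881, against 15.1% of all genes called and 7.72% called as lower. SYP had 2.43, 1.82 and 1.68 CPM with vehicle and 1.07, 0.904 and 0.949 CPM with R1881 (log2 −1.03 ± 0.35, adjusted p = 0.041, edgeR quasi-likelihood test). POU3F2 had 1.10, 1.07 and 1.21 CPM and 0.533, 0.775 and 0.158 CPM (log2 −1.25 ± 0.44, adjusted p = 0.048, edgeR). The groups did not overlap for either gene, but these are changes of 14 to 44 counts to a library for SYP and of 3 to 21 for POU3F2. The SYP call was lost on leaving out any 1 of the 6 libraries (adjusted p from 0.052 to 0.16) and with the replicate block (0.059). The POU3F2 call was lost on leaving out any library but the second with R1881 (up to 0.20), under DESeq2 (0.055), with the replicate block (0.074) and under 4 other settings, namely RLE size factors, no filter, the compared libraries alone and an adjusted p under 0.01. Beside these changes, of the 5 markers of other cell types that passed the filter, VIM (from 3.41 ± 1.01 to 7.84 ± 1.30 CPM), VWF and KRT14 rose and PTPRC fell, while the summed level of all 12 markers was 50.6 to 69.6 CPM with vehicle and 53.4 to 64.2 CPM with R1881; 3 and 5 of the 12 had no count in the group. Their part in the SYP and POU3F2 values was not tested.

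With siMETTL3, none of the 3 members of LNCaP:C4-2 was called in edgeR, none in DESeq2, and none had an unadjusted p under 0.05, against 10.6% of all genes called. SYP had 0.892, 2.51 and 2.24 CPM with vehicle and 1.46, 1.93 and 2.01 CPM with R1881, which overlap. POU3F2 had 0.510, 0.781 and 1.06 CPM and 0.408, 0.397 and 0.460 CPM, which do not overlap, with a log2 change of −0.88 ± 0.46 (adjusted p = 0.22, edgeR). REST was 0.11 ± 0.11 on the log2 scale in siSCR cells, which turns negative with library size alone, and −0.16 ± 0.11 in siMETTL3 cells (adjusted p = 0.52 and 0.35, edgeR). In siMETTL3 cells its treatments did not overlap.

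**Figure D2:**
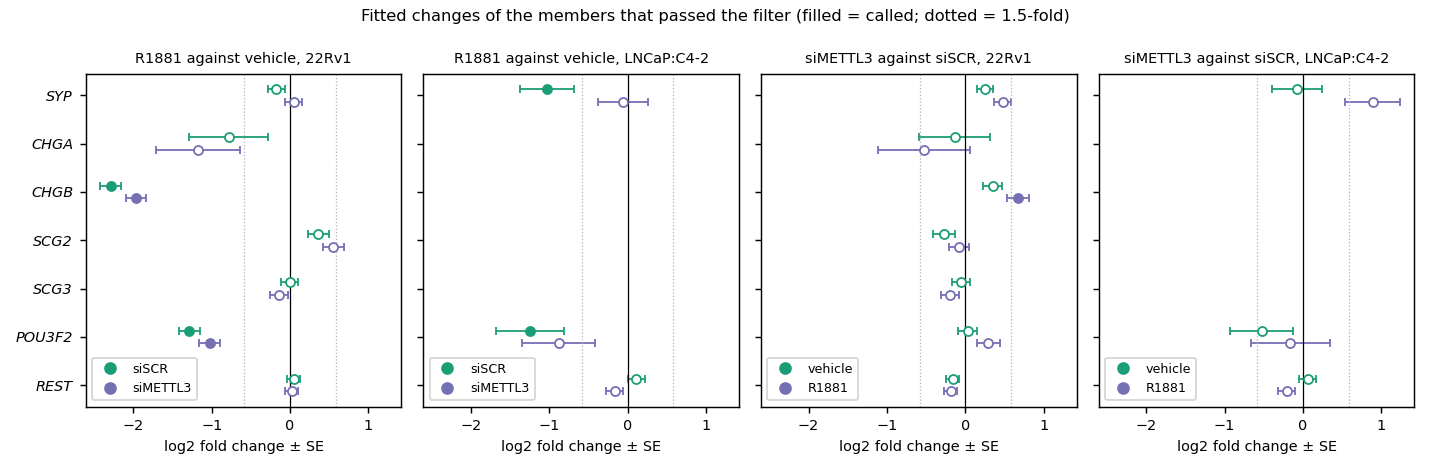
Fitted log2 fold changes with standard errors for R1881 against vehicle and for siMETTL3 against siSCR in each line, for the members that passed the filter; filled points were called and dotted lines mark 1.5-fold. CHGB at −2.29 and −1.97 is farthest from 0 with R1881 in 22Rv1, and REST is within 0.21 of 0 in all 8 comparisons.

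Whether the lines differed in their response to R1881 was tested as a difference of the siSCR responses over the 7 members tested. None was called in edgeR or DESeq2, against 16.8% of all genes called, and 1 member, SYP, had an unadjusted p under 0.05. For SYP the response in 22Rv1 minus that in LNCaP:C4-2 was 0.85 ± 0.33 on the log2 scale (adjusted p = 0.077, edgeR), which passed the threshold without the filter on low counts (adjusted p = 0.025). Of the other members expressed in both lines, POU3F2 gave a difference of −0.032 with an interval of −1.19 to 1.12 and REST one of −0.064 with an interval of −0.34 to 0.21.

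The third comparison asked what METTL3 depletion did. In 22Rv1 with R1881, 1 of 7 members was called, and it was higher with siMETTL3, against 3.29% of all genes called and 2.30% called as higher. This was CHGB, with 17.1, 13 and 14.1 CPM in siSCR and 24.2, 23.8 and 23 CPM in siMETTL3 cells (log2 0.67 ± 0.14, adjusted p = 0.0044, edgeR quasi-likelihood test). Leaving out the second siSCR library with R1881 took CHGB just under the 1.5-fold threshold (log2 0.58, adjusted p = 0.036). SYP had 79.4, 77.7 and 78.0 CPM in siSCR and 115, 115 and 101 CPM in siMETTL3 cells with R1881, groups that do not overlap, and a log2 fold change of 0.48 ± 0.11 (adjusted p = 0.0064, edgeR), under 1.5-fold. INSM1 had 3, 1 and 0 counts in siSCR and 12, 7 and 3 in siMETTL3 cells and was below the filter. It was called without the filter and in 1 of the 5 leave-one-out fits that admitted it (adjusted p = 0.045, edgeR quasi-likelihood test). That fit left out the third siMETTL3 library with R1881, the lowest of its group. INSM1 passed there through siMETTL3 libraries, where its counts were highest, so the call is no independent support for a rise.

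The other members of 22Rv1 with R1881 gave log2 values of 0.29 ± 0.15 for POU3F2, −0.078 ± 0.13 for SCG2, −0.19 ± 0.11 for SCG3 and −0.18 ± 0.084 for REST (adjusted p = 0.17, 0.72, 0.25 and 0.13, edgeR). REST had 123 CPM in each siSCR library with R1881 and 101, 115 and 113 CPM in siMETTL3 cells. These groups did not overlap, but the interval of the log2 difference, −0.35 to −0.020, covers only small changes.

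In 22Rv1 with vehicle, 0 of 7 members were called in edgeR and 0 in DESeq2, against 0.202% of all genes called. At an unadjusted p under 0.05 there were 2, a count for which that share is no background. CHGB was 0.35 ± 0.12 and SYP 0.25 ± 0.11 on the log2 scale (adjusted p = 0.19 and 0.27, edgeR). In LNCaP:C4-2, 0 and 1 of 3 members had an unadjusted p under 0.05 with vehicle and with R1881. None was called in edgeR or DESeq2, against 1.2% and 0.7% of all genes called. These shares rest on single libraries: without 1 library 0 to 339 genes were called in LNCaP:C4-2 with vehicle in place of 197, 1 to 1497 with R1881 in place of 115, and 15 to 228 in 22Rv1 with vehicle in place of 36. The count was 0 without the third siSCR library with vehicle and 1497 without the first siSCR library with R1881 in LNCaP:C4-2, and 228 without the first siMETTL3 library with vehicle in 22Rv1. SYP with R1881 had 1.07, 0.904 and 0.949 CPM in siSCR and 1.46, 1.93 and 2.01 CPM in siMETTL3 cells without overlap, and a log2 value of 0.89 ± 0.35 (adjusted p = 0.12, edgeR). REST gave 0.063 ± 0.11 with vehicle and −0.21 ± 0.11 with R1881 (adjusted p = 0.82 and 0.22, edgeR), and its groups with R1881 did not overlap.

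The siRNA and androgen comparisons share libraries within a line, so their values are given side by side only, and whether one effect depended on the other was tested as an interaction. In LNCaP:C4-2, 0 of 3 members were called, against 0% of all genes, where 2038 of 16435 had an unadjusted p under 0.05. In 22Rv1, 0 of 7 were called, against 0.0168% of all genes. DESeq2 called no member either, and none had an unadjusted p under 0.05 in edgeR. For CHGB the interaction was 0.32 ± 0.18 on the log2 scale with an interval of −0.041 to 0.68, and for SYP it was 0.22 ± 0.15 in 22Rv1 and 0.96 ± 0.47 in LNCaP:C4-2 (adjusted p = 0.84 and 0.41, edgeR). With vehicle the siMETTL3 effect also did not differ between the lines by the calls for any of the 7 members tested, in edgeR, DESeq2 or at an unadjusted p under 0.05, against 0.458% of all genes called; for REST the difference was −0.24 with an interval of −0.52 to 0.033.

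The members were next set beside other genes of the same programme, in 5 lists that share 5 genes (BEX1, SNAP25, SYN1, UNC13A and VGF). The genes known to carry RE1 elements were next compared between the lines: 16 of 20 passed the filter, and all 16 were called higher in 22Rv1 with vehicle and with R1881, against 31.2% and 32.6% of all genes, with median log2 differences of 5.87 and 5.88, against medians of 0.033 and 0.085 for all genes. Of these 16, 10 passed the filter within LNCaP:C4-2. The other 6 passed only through 22Rv1 and so had to be higher there, and the medians include them. The list was chosen with earlier results of these data known, so its counts are a description and not a test. SYT4, a synaptotagmin of secretory vesicles, was 1.24 ± 0.460 CPM in LNCaP:C4-2 and 579 ± 113 CPM in 22Rv1 with vehicle (log2 8.86 ± 0.20, adjusted p = 7.75e-23, edgeR quasi-likelihood test). BEX1, a brain-expressed X-linked gene, was 0.222 ± 0.0948 against 186 ± 15.2 CPM. SNAP25, a SNARE protein of exocytosis, gave 1 fragment against 3765 over 3 libraries each, a ratio of 3616 (exact counting interval 649 to 142900). GRIA2, a glutamate receptor subunit, had 0 counts in the siSCR libraries of LNCaP:C4-2 and was at least 332-fold higher in 22Rv1 with vehicle.

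Among transcription factors and regulators of the neuroendocrine programme, 12 of 18 passed the filter, and 8 were higher and 2 lower in 22Rv1 with vehicle, against 31.2% and 27.9% of all genes. Genes at 0 in LNCaP:C4-2 passed only through 22Rv1. Their median log2 difference was 3.97 as fitted and 2.45 with 6 genes near 0 in LNCaP:C4-2 set at their bound or ratio. SRRM4, the splicing factor that acts on REST, had 0 counts in all 6 siSCR libraries of LNCaP:C4-2 and 201 ± 16 CPM in 22Rv1 with vehicle, at least 3619-fold higher. POU3F3, the paralogue of POU3F2, was at least 445-fold, SOX2 at least 69.2-fold and MYCN at least 53.2-fold higher. HES6 and LHX2 were the 2 that were lower in 22Rv1 with vehicle.

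Of genes for granule cargo and processing, 12 of 15 passed and 7 were higher and 3 lower in 22Rv1 with vehicle, beside the same shares of all genes (median 1.5). UNC13A, which primes vesicles for release, was 8.08 ± 0.20 and VGF, a granin-like peptide precursor, 6.77 ± 0.19 on the log2 scale; VGF reached 1860 ± 303 CPM in 22Rv1. PCSK1N, an inhibitor of prohormone convertase, was 3.82 ± 0.29. Of the 20 other neuroendocrine markers, 16 passed and 10 were higher and 4 lower in 22Rv1 with vehicle (median 2.56), among them SV2A (8.83 ± 0.23, higher) and DDC (−2.23, lower). Of these 16, 9 passed the filter within LNCaP:C4-2. In both lists, a gene that passed through a single line had to be higher in that line, so the numbers of higher and lower genes are not a test of direction. With R1881 these counts were 9 higher and 2 lower for the factors, 7 and 3 for the granule genes, and 8 and 6 for the other markers, beside 32.6% and 27.5% of all genes.

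The REST corepressors and turnover factors, of which all 19 passed the filter, were read in the same way. With vehicle 2 were higher and 7 lower in 22Rv1, against 31.2% and 27.9% of all genes (median −0.31), and with R1881 2 were higher and 9 lower, against 32.6% and 27.5% (median −0.25). RCOR2 was higher (1.67 ± 0.19), as was BTRC (0.97 ± 0.11), a ubiquitin ligase subunit that targets REST for degradation. The demethylase KDM1A was lower in 22Rv1 with vehicle (−1.01 ± 0.069) and with R1881 (−1.05 ± 0.069). RCOR1, the CoREST scaffold, was lower in 22Rv1 than in LNCaP:C4-2 with R1881 (−1.06 ± 0.084, adjusted p = 1.36e-11, edgeR). With vehicle RCOR1 had 3238 counts in 22Rv1 and 5666 in LNCaP:C4-2, over 3 libraries each.

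**Figure D3:**
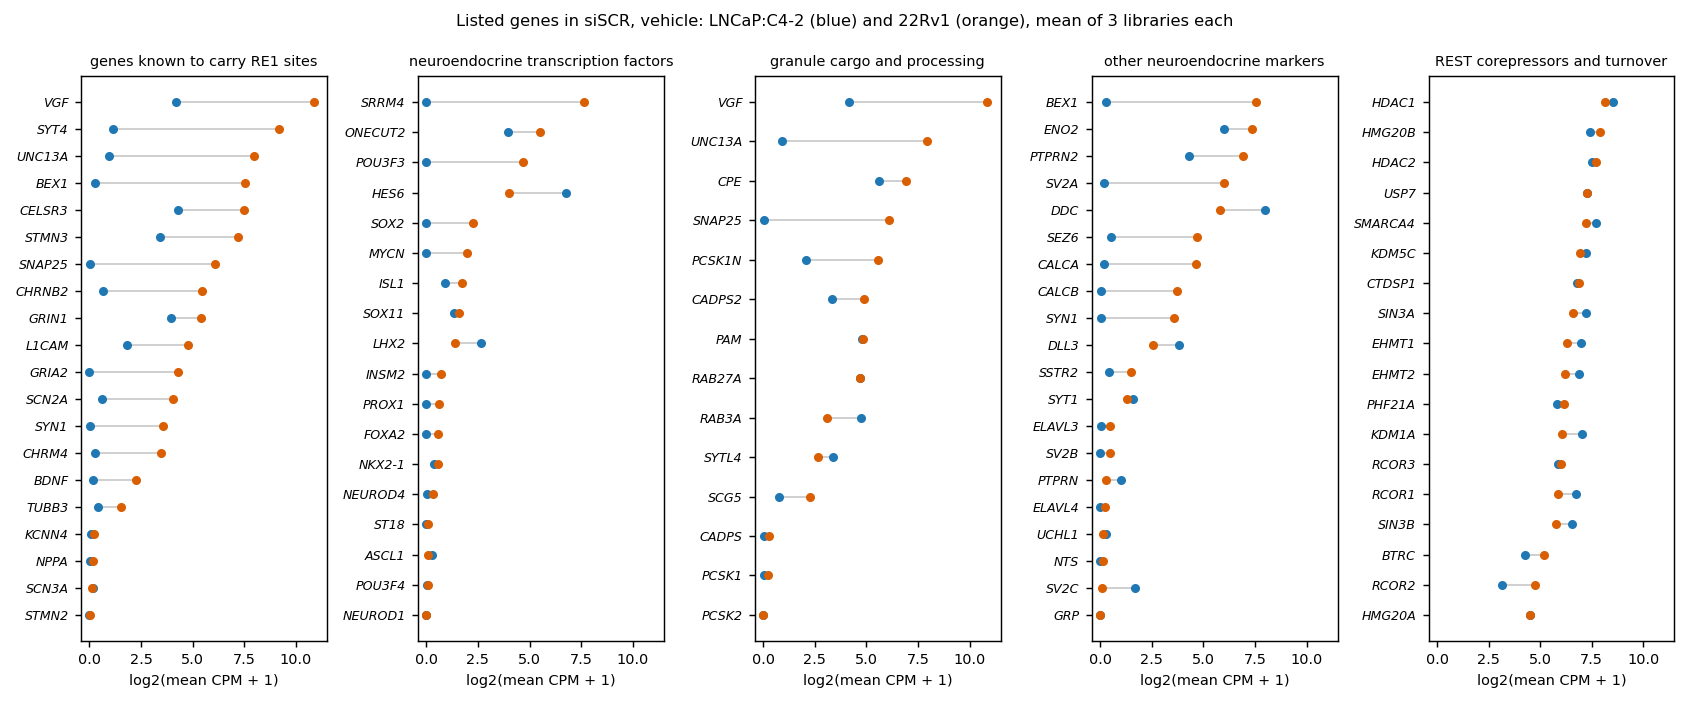
Mean level of the listed genes shown, in siSCR cells with vehicle, as log2(mean CPM + 1), in LNCaP:C4-2 (blue) and 22Rv1 (orange), n = 3 libraries each and no error drawn. In the RE1 list VGF, SYT4 and UNC13A show the highest levels in 22Rv1, and the corepressor list shows the shortest distances between the lines.

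The same lists were read for R1881 in 22Rv1. With siSCR, 6 of the 13 other neuroendocrine markers that passed fell and 1 rose (median −0.50), 4 of 12 granule genes fell (median −0.32), 4 of 16 RE1 genes fell (median −0.30), 3 of 11 factors fell and 3 rose (median −0.46), and 1 of 19 corepressors fell (median −0.12), beside 9.64% of all genes lower, 4.19% higher and a median of 0.0021. Falls were seen for MYCN (−1.92 ± 0.31), SCN2A, a sodium channel subunit (−1.79 ± 0.16), and DLL3, a Notch ligand (−1.51 ± 0.24). CPE, the carboxypeptidase that trims prohormones, fell by 0.72 on the log2 scale and SCG5, a chaperone of prohormone convertase, by 1.06. With siMETTL3 the counts were 7 lower and 1 higher, 3 lower, 4 lower, 1 lower and 1 lower in the same order of lists, beside 9.29% of all genes lower and 4.18% higher.

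In LNCaP:C4-2 with siSCR, R1881 raised 4 and lowered 2 of 9 other markers, raised 1 of 5 factors and 2 of 10 RE1 genes, beside 7.39% of all genes higher and 7.72% lower, and changed none of 11 granule genes or 19 corepressors in edgeR or DESeq2, of which 3 and 4 had an unadjusted p under 0.05. PTPRN2, a membrane protein of dense-core granules, rose from 18.7 ± 0.816 to 40.2 ± 5.37 CPM in LNCaP:C4-2 and fell from 121 ± 7.41 to 53.7 ± 2.53 CPM in 22Rv1. SYT4 rose from 1.24 ± 0.460 to 2.73 ± 0.738 CPM in LNCaP:C4-2 and fell from 579 ± 113 to 295 ± 17.6 CPM in 22Rv1. HES6, lower in 22Rv1 than in LNCaP:C4-2, rose with R1881 in LNCaP:C4-2, by 1.26 ± 0.22 with siSCR and 1.69 ± 0.22 with siMETTL3. DDC, which makes dopamine and serotonin, fell in both, by 2.06 and 1.03 on the log2 scale.

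**Figure D4:**
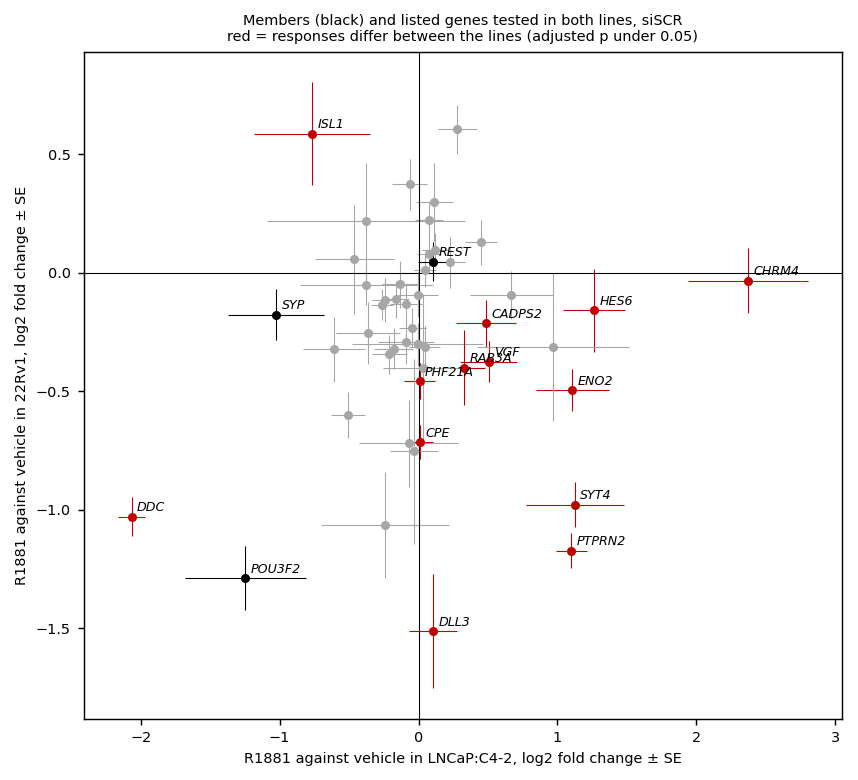
R1881 log2 fold changes with standard errors in LNCaP:C4-2 (horizontal) and 22Rv1 (vertical), siSCR, for 50 members and listed genes tested in both lines. Red marks the 13 whose responses differ between the lines by test, beside 16.8% of all genes. PTPRN2 and SYT4 lie to the right of 0 and below 0, while POU3F2 and DDC lie on the negative side of both axes.

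The lists were also read for METTL3 depletion, for which 3.29% of all genes were called in 22Rv1 with R1881 and 0.202% with vehicle, and 0.7% and 1.2% in LNCaP:C4-2. In 22Rv1 with R1881, 1 of 11 factors was called, HES6, a transcriptional cofactor of the bHLH family (log2 1.14 ± 0.17, adjusted p = 0.00055, edgeR). None of the other 4 lists held a called gene in edgeR or DESeq2. Of these, 5 of 13 markers, 2 of 12 granule genes, 9 of 19 corepressors and 7 of 16 RE1 genes had an unadjusted p under 0.05. The share of 3.29% is no background for these counts. Without the fold threshold 2897 of the 17865 genes tested had an adjusted p under 0.05. With vehicle in LNCaP:C4-2, 2 of 9 other markers, PTPRN (1.69 ± 0.33) and ENO2 (1.29 ± 0.26), and 1 of 5 factors, LHX2 (0.74 ± 0.17), were higher. In 22Rv1 with vehicle none of the 5 lists held a called gene in edgeR or DESeq2, and 2 other markers, 2 factors, 2 granule genes, 4 corepressors and 3 RE1 genes had an unadjusted p under 0.05. In LNCaP:C4-2 with R1881 none was called in edgeR and 1 RE1 gene in DESeq2, and these counts were 1, 2, 1, 7 and 3.

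Finally, the genes whose levels were most like those of REST and SYP were sought, the members with a mean of at least 1 CPM in both lines. The measure was Pearson's r over 24 libraries of log2(CPM + 1) after each line's mean was subtracted, over 12963 genes. CCNT2 (r = 0.93), SENP6 (0.92) and ACAP2 (0.92) were most like REST. PKMYT1 (0.94) and the processed pseudogene HMGB1P5 (0.92) were among the genes most like SYP; reads of the pseudogene may be shared with its parent. These values are a description only, since the points share library depth and composition.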

How the data were processed

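Total RNA of 24 samples was sequenced by the authors, 3 libraries for each line, siRNA and treatment. Per the methods and the submitters' processing notes, reads were trimmed with Trim Galore and cutadapt, checked with FastQC, aligned to GRCh38 with STAR and counted per gene with featureCounts 1.5.0 against Ensembl release 83; strand was not used, and multi-mapping reads were not counted. The deposited values are raw counts per gene. The labels do not say that replicates came from separate cultures on separate days, so p-values measure the spread between these samples.

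Genes were filtered with filterByExpr (minimum count 10, minimum total 15), scaled by trimmed mean of M values and tested with the quasi-likelihood test of edgeR 4.0.16 (R 4.3.3), with Benjamini-Hochberg adjustment over all genes tested: 1 fit for each line (16435 and 17865 genes) and 1 over 24 libraries (19437 genes). Calls needed an adjusted p under 0.05 and a fold of 1.5, or the adjusted p alone for interactions and differences of effects. Shares of all genes called follow this rule, so they are no background for counts at an unadjusted p under 0.05. The scripts were tested on simulated data. DESeq2 1.42.0, other scalings, filters and thresholds, a replicate block and leaving out each library were alternatives. Intervals of log2 values are the estimate ± 1.96 SE. The smallest two-sided p of an exact permutation test of 3 against 3 libraries is 0.1, so none is given. Genes with 0 counts in a group were set at 3 counts over the group, and ratios with 1 to 3 counts carry exact 95% intervals. The named genes were the members, METTL3, up to 4 called genes for each list and comparison by size of change with at least 1 CPM in a group, and the 3 genes most like a member; cell-type markers, the RE1 search and its genes were chosen after their values were seen. A few listed genes are counted in the lists but not reported here by name. The members, lists and tests were chosen with earlier results of these data known. RE1 matches were searched in hg38 around RefSeq starts (pysam 0.24.0), and exonic position was taken from the deposited exons and GENCODE.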

Additional observations from a re-analysis of the deposited data

Results flagged for a closer look

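The response to R1881 in siSCR cells differed between the lines for 17 of the listed genes reported here, each with more than 3 counts over a LNCaP:C4-2 group, by the test of the difference itself (edgeR quasi-likelihood test, adjusted p under 0.05 over 19437 genes), and for no member. Over all genes the same test called 3265, or 16.8%, so calls are common in any list. Each value is the log2 response in 22Rv1 minus that in LNCaP:C4-2, over 6 libraries in each line. Of neuroendocrine markers, PTPRN2 gave −2.28, DLL3 −1.62, ENO2 −1.61 and DDC 1.03. Of factors, HES6 gave −1.42 and ISL1 1.36. Of granule genes, VGF gave −0.88, RAB3A −0.73, CPE −0.73 and CADPS2 −0.70. Of RE1 genes beside VGF, CHRM4 gave −2.41 and SYT4 −2.10, and of corepressors PHF21A gave −0.47. Of luminal markers, KLK3 gave −4.10, FOLH1 −2.32 and HOXB13 −1.24, and of markers of other cell types VIM gave −1.36. No gene of these lists met the same test for the siMETTL3 effect or for an interaction. Groups of 3 libraries were not searched for single libraries that stand apart.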

How the results depend on the processing

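The falls of CHGB and POU3F2 with R1881 in 22Rv1 were called under all 9 alternatives and on leaving out each of 6 libraries, with both siRNAs. Of the 2 members called with R1881 in LNCaP:C4-2 siSCR cells, 1 remained called with RLE size factors, with no filter, with at least 10 counts in every library, with the compared libraries alone and with DESeq2, 0 at an adjusted p under 0.01 and 0 with the replicate block, and 0 to 1 without 1 library. For siMETTL3 in 22Rv1 with R1881 the count was 2 without a fold threshold, SYP being the second. It was 2 without the filter and 0 to 2 without 1 library, INSM1 being the second in these. Between the lines 2 members were tested and called with at least 10 counts in every library, with vehicle and with R1881, because the filter leaves fewer genes; the R1881 response differed for 1 member, SYP, without the filter. The range without 1 library was 2 to 3 members for R1881 in 22Rv1 (CHGA with siSCR or SCG2 with siMETTL3 added), 8 to 8 (INSM1 added) and 7 to 7 between the lines, and 0 in each other comparison. Library size alone turned the sign of uncalled values: REST with R1881 to −0.009 in LNCaP:C4-2 and −0.013 in 22Rv1 with siSCR, and to −0.038 with siMETTL3, SYP with siMETTL3 in 22Rv1 to −0.014, and the POU3F2 difference of responses to 0.026. It shifts the median of all genes, to −0.15 from −0.028 for R1881 in LNCaP:C4-2 with siSCR.

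Leaving out 1 library turned the sign of further uncalled log2 values, whose ranges were: for R1881, SYP in LNCaP:C4-2 siMETTL3 −0.39 to 0.2, SCG3 in 22Rv1 siSCR −0.08 to 0.14, REST −0.012 to 0.14 with siSCR and −0.036 to 0.096 with siMETTL3, and SYP −0.097 to 0.15 in 22Rv1 siMETTL3. For siMETTL3 they were, in LNCaP:C4-2, SYP −0.33 to 0.25 and REST −0.055 to 0.13 with vehicle and POU3F2 −0.62 to 0.32 with R1881, and in 22Rv1 CHGA −0.72 to 0.13 and SCG3 −0.19 to 0.083 with vehicle and CHGA −0.95 to 0.3 with R1881. For interactions they were POU3F2 −0.096 to 0.85 in LNCaP:C4-2, CHGA −0.82 to 0.43 and REST −0.11 to 0.049 in 22Rv1, and for the difference of responses POU3F2 −0.55 to 0.39.

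Counts of all genes called moved by over 1.5 times as follows, beside the leave-one-out ranges of siMETTL3, 0 to 339 and 1 to 1497 in LNCaP:C4-2, 15 to 228 and 309 to 538 in 22Rv1, 14 to 308 for its difference between lines, and 0 to 8 and 2 to 30 for the interactions. Without a fold threshold R1881 called 4081 in place of 2484 genes in LNCaP:C4-2 siSCR, 2728 in place of 1747 with siMETTL3, and 5903 and 5917 in place of 2471 and 2406 in 22Rv1; siMETTL3 called 100 in place of 36 with vehicle and 2897 in place of 587 with R1881 in 22Rv1. At an adjusted p under 0.01 siMETTL3 called 40 of 197 and 6 of 115 in LNCaP:C4-2 and 21 and 304 in 22Rv1, and the differences between lines 1813 of 3265 and 15 of 89. Without the filter siMETTL3 called 464 and 776 in LNCaP:C4-2 with vehicle and R1881 and 87 in 22Rv1 with vehicle, the interactions 351 and 79 in place of 0 and 3, and the siMETTL3 difference 300. DESeq2 called 381 and 516 for siMETTL3 in LNCaP:C4-2, 57 for its interaction and 322 for the siMETTL3 difference. With the compared libraries alone siMETTL3 called 112, 520 and 14 in the same 3 comparisons, and with at least 10 counts in every library the lines differed at 6370 and 6643 in place of 11497 and 11690 genes. Same-numbered libraries did not deviate together (mean r −0.017 and −0.010 over 18 pairs in each line), so the numbers are not taken as pairs; the replicate block moved a count of all genes by over 1.5 times for siMETTL3 with R1881 in LNCaP:C4-2 alone (39 in place of 115), and beside SYP and POU3F2 above it changed no call of a member. Depth limits CHGA, INSM1 and NCAM1, and every marker but SYP and POU3F2 in LNCaP:C4-2.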
